A study of Mus musculus with 18 samples.

Results

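The genes described here were Ngfr, Ntf3, S100b, Sox10, Mbp, Egr2 and Cdh19, a set of 7 nerve growth factor and Schwann cell genes chosen by name, read across mouse fat depots in the cold and in the warm. All probe sets annotated to 1 of these genes alone were taken, which gave 19 of the 45037 probe sets tested: Ngfr had 3, S100b 2, Sox10 3, Mbp 8, Egr2 2 and Cdh19 1. Ntf3 was matched to no probe set in the annotation used, so values are given for 6 of the 7 genes. RNA came from interscapular brown adipose tissue (BAT), subcutaneous white adipose tissue (sWAT) and mesenteric white adipose tissue (mWAT) of female Sv129 mice aged 10 weeks. The mice had spent 10 days at 6 or 28°C, and no gene was altered and no drug was given. Each of the 6 groups had 3 Affymetrix arrays, called biological replicates in the study's methods. The tissue and temperature entries of some samples contradict their own titles. Groups were taken from the source names, which carry the same depot and temperature as the titles for all 18 arrays. Arrays are numbered 1 to 3 within a group as names only, since the labels give no mouse for an array.

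Schwann cells are the glia of peripheral nerve: they wrap or ensheath axons, including the sympathetic fibers that reach fat. They derive from the neural crest and depend on axonal signals such as neuregulin, read by the receptor pair of Erbb2 and Erbb3. Sox10 is the transcription factor that specifies and maintains them, and Egr2, also called Krox20, turns on the myelin program, of which Mbp, myelin basic protein, is a structural product. S100b is a calcium-binding protein of glia that adipocytes are also known to make, and Cdh19 is a cadherin of the Schwann cell lineage. Ngfr is the p75 neurotrophin receptor, and Ntf3 encodes neurotrophin-3, a ligand of p75 and of the TrkC receptor made from Ntrk3. In whole depots, fewer cells of a type and less RNA per cell cannot be told apart.

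Promoter bases were taken from RefSeq on GRCm38.p6, whose table held entries for Ngfr, S100b and Egr2. Those of S100b, which was highest in BAT, and of Egr2, which was highest in sWAT, are printed, and none was used for Sox10, Mbp and Cdh19. The S100b sequence is the 250 bases before its start, chr10:76253586-76253835 on the plus strand, with the core of an early B cell factor (EBF) site in capitals. The Egr2 sequence is the 250 bases before the third of its 5 annotated starts, chr10:67537619-67537868 on the plus strand, with a CArG box, the site of serum response factor, in capitals.
S100b: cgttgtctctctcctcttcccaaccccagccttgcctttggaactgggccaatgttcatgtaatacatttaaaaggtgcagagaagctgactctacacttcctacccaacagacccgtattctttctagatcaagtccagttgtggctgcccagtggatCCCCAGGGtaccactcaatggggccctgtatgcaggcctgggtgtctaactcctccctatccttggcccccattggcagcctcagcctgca
Egr2: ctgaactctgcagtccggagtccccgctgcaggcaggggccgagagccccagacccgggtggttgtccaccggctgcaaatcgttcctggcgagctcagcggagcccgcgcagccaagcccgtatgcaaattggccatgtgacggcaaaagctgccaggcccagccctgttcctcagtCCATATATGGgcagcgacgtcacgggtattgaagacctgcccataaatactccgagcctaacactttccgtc
The EBF core was searched as CCCNNGGG on both strands of 32851 upstream windows of this length, and 11.8% of them held it. In S100b it began 91 bases before the start. The CArG box was searched as a pair of C, 6 letters that are each A or T, and a pair of G, was present in 482 windows, or 1.47%, and began 72 bases before this Egr2 start. The windows of the next 2 Egr2 starts overlap this one and hold the same box, and that of the second start, chr10:67537316-67537565, holds a box of its own, also 72 bases before its start. The Ngfr window held none of the 5 motifs searched, which were these and TGACGTCA (1.55% of windows), ACAAT (27.7%) and CCAAT (33.8%). The S100b window held CCAAT at 2 places and the printed Egr2 window at 1, and none of these overlaps the capitals. These matches describe letters only.

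The arrays differed in the other cells they held. Array medians lay between 6.97 and 7.20 on the log2 intensity scale. No detection calls were given, so a difference whose lower group reads under these medians has a direction and a fitted value but no exact size. Brown fat thermogenesis genes, a list of 10, averaged 12.85 to 12.88 in BAT at 6°C and 11.66 to 12.01 at 28°C, 11.15 to 11.59 in sWAT at 6°C and 8.57 to 9.13 at 28°C, and 9.18 to 9.69 in mWAT at 6°C and 7.91 to 8.70 at 28°C. The depot labels and these markers were therefore in the order the tissue names imply. Mammary epithelium markers were above the array median in all sWAT arrays for 10 of 11 genes, in all BAT arrays for 0 of 11. Neuron markers were above it in all mWAT arrays for 17 of 22 genes at each temperature, but for 1 or 2 of 22 in BAT and 1 of 22 in sWAT. Skeletal muscle genes, a list of 12, averaged 8.23 to 10.63 in BAT at 6°C and 9.01 to 12.82 at 28°C. In sWAT they averaged 6.72 to 11.25 at 6°C and 7.77 to 11.65 at 28°C, and in mWAT 7.57 or less. Pancreatic enzyme genes averaged 14.09 on mWAT array 2 at 6°C, 10.59 on BAT array 3 at 6°C and 10.0 on mWAT array 1 at 28°C, against 7.02 or less elsewhere. The mWAT arrays numbered 3 at 6 and 28°C stood apart from the other 4 mWAT arrays, with a correlation of 0.991 with each other and 0.949 to 0.969 with the rest. Calls of members that change without any of these arrays are given with and without them. List genes were not refitted without these arrays.

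None of the 19 probe sets passed between 6 and 28°C in any depot. The test was limma's moderated test over all 45037 probe sets with Benjamini-Hochberg adjustment, and a difference was called at an adjusted p under 0.01. The background was 5.28% of all probe sets called in BAT, 0.48% in sWAT and 0.00222% in mWAT. In counts these were 2377, 216 and 1 probe sets. The paper, with its own limma fit and a threshold of 0.01, reports more in each depot, several times as many. The reason was not tested, and a member that did not pass here need not be unchanged. At an unadjusted p under 0.05 there were 5 member probe sets in BAT, 4 in sWAT and 0 in mWAT, and the smallest adjusted p was 0.0809 in BAT, 0.0333 in sWAT and 1 in mWAT. Groups did not overlap for 9 of the 19 probe sets in BAT, 6 in sWAT and 0 in mWAT. In BAT most of these were of Mbp, and 1 of them, 1425264_s_at, was higher in the cold (0.47). The shares of all probe sets without overlap, or with an unadjusted p under 0.05, were not counted, so these counts are descriptions. Over the 19 probe sets the median difference, 6 minus 28°C, was -0.42 in BAT, -0.10 in sWAT and 0.00 in mWAT, beside 0.01, -0.01 and -0.01 over all probe sets. The median half-width of the unadjusted 95% interval was 0.73 for the brightest probe set of each gene, and differences as large as 1.36 did not pass after adjustment. No difference between depots in the cold response passed for any of the 19 probe sets. The background of such calls was 0.362% for BAT against sWAT, 0.582% for BAT against mWAT and 0% for sWAT against mWAT, and 2, 0 and 2 members reached an unadjusted p under 0.05.

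**Figure D1:**
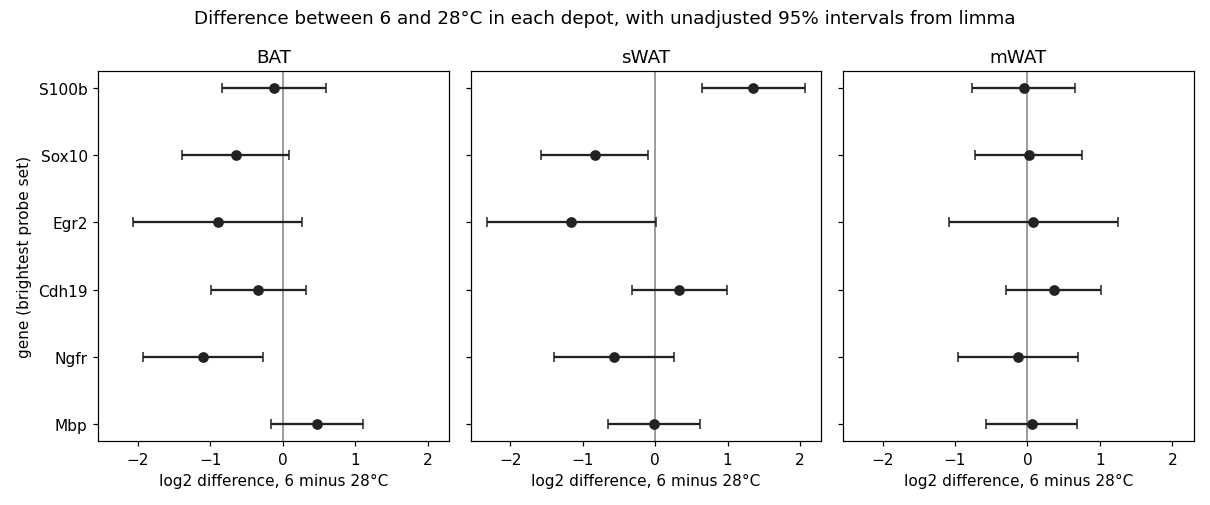
Difference between 6 and 28°C (log2 intensity, 6 minus 28°C) for the brightest probe set of each of 6 genes in BAT, sWAT and mWAT, with unadjusted 95% intervals from limma. S100b in sWAT lies at 1.36, the highest of the 18 points, and Egr2 in sWAT at -1.16, the lowest, and neither passed after adjustment.

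Between depots the same probe sets often passed. BAT against sWAT called 8 of 19 at 28°C, 3 higher and 5 lower, where 22.9% of all probe sets were called, 13.2% higher and 9.66% lower. At 6°C it called 9 of 19, 2 higher and 7 lower, where 23.7% of all were called, 13.4% higher and 10.3% lower. BAT against mWAT called 2 of 19 at 28°C, both higher, beside 27.2% of all (15.8% higher, 11.4% lower). At 6°C it called 4 of 19, 2 in each direction, beside 35.2% of all (20.4% higher, 14.8% lower). Both of these shares were below the background. For sWAT against mWAT 5 of 19 were called at 28°C, 4 higher and 1 lower, beside 5.84% of all (2.14% higher, 3.7% lower). At 6°C 3 of 19 were called, 2 higher and 1 lower, beside 7.45% of all (3.75% higher, 3.7% lower). Several counts moved with 1 array. For BAT against sWAT the count was 5 at 28°C without BAT array 1, and at 6°C it was 5 without BAT array 3 and 4 without sWAT array 1 or sWAT array 2. For sWAT against mWAT at 6°C it was 1 without mWAT array 1 or 2 or without any 1 of the sWAT arrays. Depot accounted for 90.0% of the variance of S100b over the 18 arrays, 84.9% of Sox10, 80.2% of Cdh19, 68.2% of Egr2 and 50.1% of Ngfr. These shares are for the brightest probe set of each gene, and for the dim Ngfr probe set 1421241_at the share was 5.98%. For the brightest Mbp probe set depot accounted for 0.207%, and 83.9% lay within groups. It accounted for 11.6% for Mbp probe set 1425263_a_at, and for 43.6 to 54.4% for the other 6 of Mbp.

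**Figure D2:**
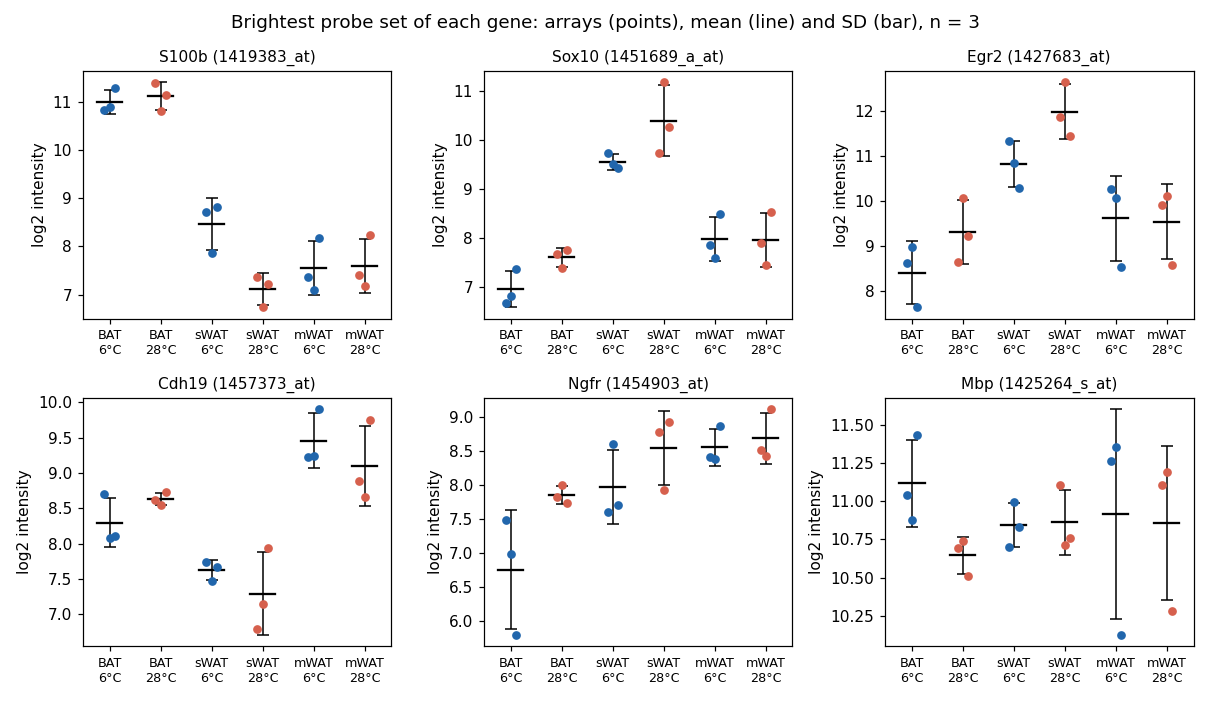
Log2 intensity of the brightest probe set of each gene on all 18 arrays, by depot and temperature, with each group's mean (line) and SD (bar, n = 3 arrays). S100b lies above 10.8 on all BAT arrays and below 8.83 on all others, Sox10 is highest in sWAT, Cdh19 is highest in mWAT, and the depots overlap for Mbp.

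S100b was high in BAT and, in sWAT, read higher on every cold array than on any warm one. Its gene lies at chr10:76253836-76261319, and its brightest probe set was 1419383_at. In BAT it read 10.83, 10.88 and 11.27 log2 units at 6°C, against 11.39, 10.81 and 11.14 at 28°C. In sWAT it read 8.72, 7.85 and 8.82 at 6°C, against 7.37, 6.73 and 7.22 at 28°C. In mWAT it read 7.36, 7.10 and 8.17 at 6°C, against 7.40, 7.17 and 8.22 at 28°C. All 6 BAT arrays lay above all 12 white fat arrays, and the temperatures overlapped in BAT and mWAT but not in sWAT. At 28°C S100b was 16.1-fold higher in BAT than in sWAT (log2 difference 4.01 ± 0.33 SE, adjusted p = 7.67e-07) and 11.5-fold higher than in mWAT (3.52 ± 0.33, adjusted p = 1.45e-06). The white fat readings at 28°C mostly lay around the array medians, so these folds are not exact. At 6°C it was 5.78-fold higher than in sWAT (2.53 ± 0.33, adjusted p = 5.3e-05) and 10.9-fold higher than in mWAT (3.45 ± 0.33, adjusted p = 1.33e-06). The values of sWAT and mWAT did not differ beyond the threshold at 6°C (0.92 ± 0.33, adjusted p = 0.0886).

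The cold difference of S100b in sWAT was 1.36 ± 0.33 (2.56-fold, 95% interval 0.64 to 2.07), with an adjusted p of 0.0601. The other probe set, 1434342_at, read 8.37, 7.70 and 8.59 in sWAT at 6°C, against 6.76, 6.51 and 6.73 at 28°C. Its difference of 1.55 ± 0.34 had an adjusted p of 0.0333. Both probe sets thus separated the 3 cold from the 3 warm sWAT arrays without passing. The paper, with its own fit, lists S100b among genes raised in cold sWAT and higher in BAT than in white fat. Over 26 other settings, all read here at 0.01, the adjusted p of 1419383_at lay between 0.0135 and 0.255, and it passed in 0. One of the 26 was the main fit with a threshold of 0.05, which 1434342_at meets with its 0.0333 and 1419383_at does not. At 0.01 the probe set 1434342_at passed in 2 of them, both of which left out mWAT array 3 of the 28°C group. The adjusted p was 0.00571 without that array and 0.0023 without array 3 at both mWAT temperatures. Against the change in BAT, the cold difference in sWAT was larger by 1.48 log2 units (BAT minus sWAT -1.48 ± 0.47), which did not pass (adjusted p = 0.147). Of the 10 thermogenesis genes, 8 rose in sWAT at 6°C, 1 in BAT and 1 in mWAT. Over all probe sets, 0.48% were called in either direction in sWAT, 5.28% in BAT and 0.00222% in mWAT. The 5 genes whose brightest probe sets followed S100b most closely over the 18 arrays were Oxnad1, Mrps31, Sirt3, Alkbh7 and Mrpl34, with Pearson correlations of 0.984 to 0.988. Sirt3 is a mitochondrial deacetylase, and Mrps31 and Mrpl34 are proteins of the mitochondrial ribosome. The part of brown adipocyte content in the S100b values was not tested.

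Sox10 was highest in sWAT at both temperatures. The gene lies at chr15:79154913-79164490, and its brightest probe set was 1451689_a_at. In BAT it read 6.67, 6.83 and 7.38 at 6°C, against 7.68, 7.40 and 7.77 at 28°C. In sWAT it read 9.74, 9.52 and 9.43 at 6°C, against 9.75, 11.19 and 10.26 at 28°C. In mWAT it read 7.87, 7.60 and 8.49 at 6°C, against 7.90, 7.45 and 8.54 at 28°C. All 6 sWAT arrays lay above all 12 arrays of the other depots. The 3 cold arrays lay below the 3 warm ones in BAT and, narrowly (9.743 against 9.748), in sWAT. BAT was 6.88-fold lower than sWAT at 28°C (-2.78 ± 0.35, adjusted p = 2.51e-05) and 6.07-fold lower at 6°C (-2.60 ± 0.35, adjusted p = 5.5e-05). sWAT was 5.40-fold higher than mWAT at 28°C (2.43 ± 0.35, adjusted p = 2.37e-04) and 2.99-fold higher at 6°C (1.58 ± 0.35, adjusted p = 0.00618). The call at 6°C ended without mWAT array 1 or 2 at 6°C or any 1 of the cold sWAT arrays, with an adjusted p between 0.0164 and 0.031, and without the pancreas arrays (0.0446) or with only the 2 groups fitted (0.0139), which also ended the 28°C call (0.0252). BAT and mWAT, neighbors in the order of levels, did not pass at either temperature (adjusted p = 0.0235 at 6°C). The cold differences of -0.65 ± 0.35 in BAT and -0.83 ± 0.35 in sWAT did not pass (adjusted p = 0.251 and 0.322).

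The other Sox10 probe sets, 1424985_a_at and 1425369_a_at, both had their highest means in sWAT and passed for BAT against sWAT at both temperatures and for sWAT against mWAT at 28°C. The temperatures overlapped in BAT for both of them. In sWAT they overlapped for 1424985_a_at but not for 1425369_a_at, which was lower in the cold without passing. The genes that followed Sox10 most closely were Crabp1, Krt14, Lama3, Krt17 and Slc35f3 (Pearson correlation 0.956 to 0.970 over 18 arrays). Krt14 and Krt17 are keratins of basal epithelium, and Sox10 is also known from the mammary gland, which lies in this depot of female mice. Krt14 itself read 10.0, 10.2 and 10.2 in sWAT at 6°C and 10.6, 11.4 and 10.9 at 28°C. The mammary list mean lay between 10.31 and 12.25 in sWAT, against 4.28 to 7.43 in BAT and 5.81 to 7.07 in mWAT, and the warm sWAT array with the highest list mean, array 2, also had the highest Sox10 value. The part of mammary epithelium in the Sox10 values was not tested. Correlations over these arrays share the depot differences and are descriptions.

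Egr2 was also highest in sWAT, with a wide spread between arrays. The gene lies at chr10:67534469-67542188, and its brightest probe set was 1427683_at. In BAT it read 8.64, 8.98 and 7.64 at 6°C, against 8.66, 10.07 and 9.23 at 28°C. In sWAT it read 11.34, 10.86 and 10.31 at 6°C, against 11.87, 12.65 and 11.46 at 28°C. In mWAT it read 10.27, 10.08 and 8.54 at 6°C, against 9.93, 10.12 and 8.59 at 28°C. All sWAT arrays lay above all BAT and mWAT arrays, while BAT and mWAT overlapped. BAT was 6.39-fold lower than sWAT at 28°C (-2.68 ± 0.55, adjusted p = 0.00153) and 5.34-fold lower at 6°C (-2.42 ± 0.55, adjusted p = 0.00315). These calls ended without warm BAT array 1 (adjusted p = 0.0101) and, at 6°C, without BAT array 3 (0.0189), sWAT array 1 (0.0161), sWAT array 2 (0.0118) or the pancreas arrays (0.0264). sWAT was 5.45-fold higher than mWAT at 28°C (2.45 ± 0.55, adjusted p = 0.00836), a call that ended in 11 of the 18 fits that each left out 1 array, with an adjusted p up to 0.0479, and in 5 of 9 other settings, with one up to 0.0361. At 6°C that difference was 1.21 ± 0.55 (adjusted p = 0.183).

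The cold difference of Egr2 was -0.90 ± 0.55 in BAT, -1.16 ± 0.55 in sWAT and 0.08 ± 0.55 in mWAT, and none passed (adjusted p = 0.326, 0.41 and 1). The 3 cold sWAT arrays lay below the 3 warm ones, by a margin of 0.12 log2 units or more. The second probe set, 1427682_a_at, ordered the depot means in the same way. It passed for BAT against sWAT at both temperatures, but not for sWAT against mWAT at 28°C (2.23, adjusted p = 0.0231). Its arrays overlapped between depots. Cold sWAT array 3 read 10.08, below mWAT arrays 1 and 2 at each temperature (10.19 to 10.29) and warm BAT array 2 (10.18). In mWAT, array 3 was the lowest at both temperatures for both probe sets. Egr2 is a zinc finger factor that lymphocytes and macrophages also induce. Lymphocyte markers, 8 of 10 measured, averaged 5.51 to 6.28 in BAT and 9.15 to 11.13 in sWAT, and in mWAT they averaged 11.10 to 11.24 on arrays 1 and 2 but 6.54 and 6.63 on array 3. The genes that followed Egr2 most closely were Lig3, Il1r2, BC018473, Gzmb and St14 (Pearson correlation 0.901 to 0.953 over 18 arrays). Egr3, its close relative among the immediate-early genes, was lower in BAT than in sWAT, with a log2 difference of -3.55 ± 0.65 at 28°C (adjusted p = 6.26e-04) and of -3.19 ± 0.65 at 6°C (adjusted p = 0.00148). All BAT arrays read Egr3 under the array medians. Of the 10 immediate-early genes listed, 1 was called higher and 1 lower in BAT against sWAT at 28°C, and 2 lower at 6°C. The background was 13.2% of all probe sets higher and 9.66% lower at 28°C, and 10.3% lower at 6°C. The part of immune cells in the Egr2 values was not tested.

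**Figure D3:**
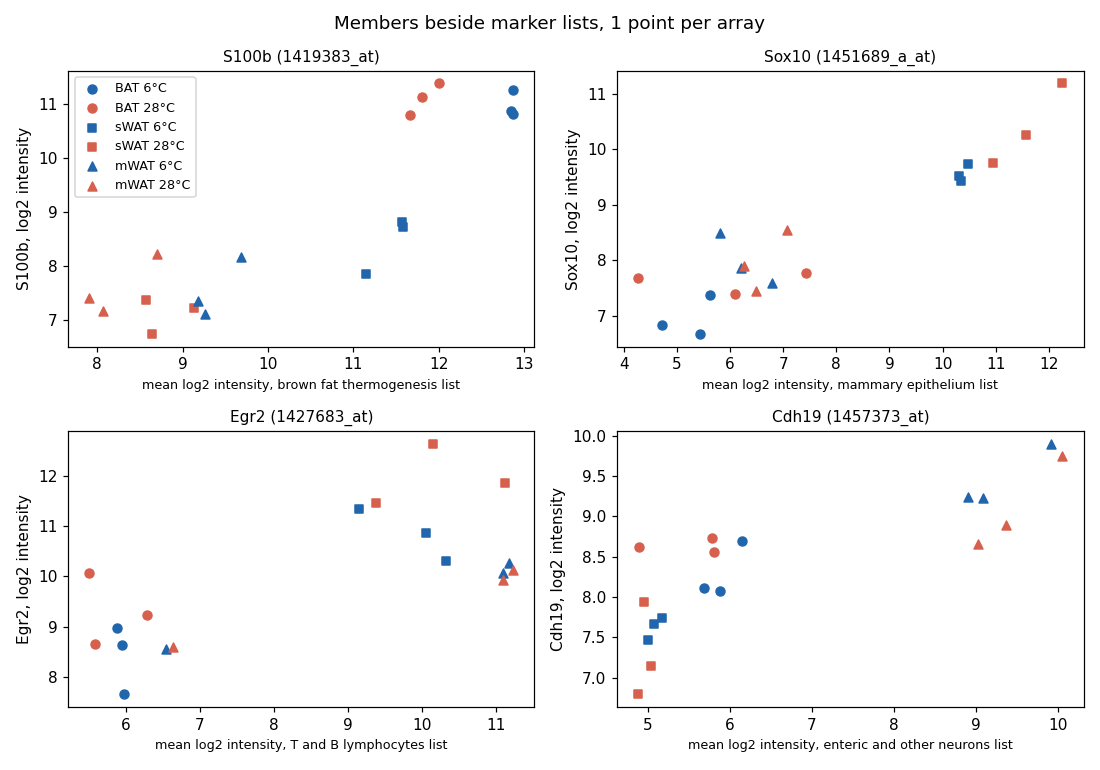
Log2 intensity of S100b, Sox10, Egr2 and Cdh19 (y axes, brightest probe set) against the mean log2 intensity of a marker list (x axes: brown fat thermogenesis, mammary epithelium, lymphocytes and neurons), 1 point per array, with depot as shape and temperature as color. The sWAT arrays with the highest mammary list means have the highest Sox10 values, and the 6 mWAT arrays, with neuron list means of 8.90 to 10.05, have the highest Cdh19 values except for 2 BAT arrays above the lowest mWAT array.

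Cdh19 ran the other way, lowest in sWAT and highest in mWAT. The gene lies at chr1:110888002-110977601, and it had 1 probe set, 1457373_at. In BAT it read 8.69, 8.08 and 8.11 at 6°C, against 8.62, 8.55 and 8.73 at 28°C. In sWAT it read 7.74, 7.46 and 7.67 at 6°C, against 6.79, 7.15 and 7.93 at 28°C. In mWAT it read 9.23, 9.24 and 9.90 at 6°C, against 8.89, 8.66 and 9.74 at 28°C. All sWAT arrays lay below all BAT and mWAT arrays, and the temperatures overlapped in each depot. sWAT was 3.49-fold lower than mWAT at 28°C (-1.80 ± 0.31, adjusted p = 0.00108) and 3.56-fold lower at 6°C (-1.83 ± 0.31, adjusted p = 9.44e-04), and both calls stood in all 18 fits that each left out 1 array. With only the 2 groups fitted, the 28°C call ended (adjusted p = 0.0495). BAT was 2.53-fold higher than sWAT at 28°C (1.34 ± 0.31, adjusted p = 0.00346) and 1.59-fold higher at 6°C without passing (0.67 ± 0.31, adjusted p = 0.0982). The 28°C call ended without BAT array 1 or 3 or sWAT array 1 or 2, with an adjusted p of 0.0121 to 0.0218, and with only the 2 groups fitted (0.0126). BAT was 2.24-fold lower than mWAT at 6°C (-1.16 ± 0.31, adjusted p = 0.00588). That call ended without BAT array 2 (adjusted p = 0.025), BAT array 3 (0.0247) or mWAT array 3 (0.0279), and in 4 of 9 other settings, with an adjusted p up to 0.0385. At 28°C the same difference was -0.46 ± 0.31 (adjusted p = 0.245).

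The genes that followed Cdh19 most closely were Lrrtm3, 1700047M11Rik, Itga1, Pde3a and Gm2115 (Pearson correlation 0.935 to 0.960 over 18 arrays). The neuron list mean lay between 8.90 and 10.05 in mWAT, but between 4.89 and 6.14 in BAT and between 4.89 and 5.17 in sWAT. Its genes were lower in BAT than in mWAT for 18 of 22 at 28°C and 17 of 22 at 6°C, and lower in sWAT than in mWAT for 18 of 22 at each temperature. Of all probe sets, 11.4% at 28°C and 14.8% at 6°C were lower in BAT than in mWAT. The share lower in sWAT than in mWAT was 3.7% at each temperature. Smooth muscle markers, all 8 of which were lower in BAT and in sWAT than in mWAT, had a list mean between 9.09 and 10.33 in BAT and between 9.77 and 10.46 in sWAT, against 13.04 to 13.70 in mWAT. The part of other mesenteric tissue, such as ganglia, in the Cdh19 values was not tested. Sox10 and Cdh19, both markers of the Schwann cell lineage, had a Pearson correlation of -0.58 over the 18 arrays, while Sox10 and Egr2 had the highest of the 15 member pairs, 0.79.

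Ngfr, the p75 receptor, was lowest in BAT in the cold. The gene lies at chr11:95568818-95587698, and its brightest probe set was 1454903_at. In BAT it read 7.49, 6.98 and 5.80 at 6°C, against 7.83, 8.0 and 7.74 at 28°C. In sWAT it read 7.60, 8.60 and 7.70 at 6°C, against 8.78, 7.92 and 8.92 at 28°C. In mWAT it read 8.41, 8.38 and 8.86 at 6°C, against 8.52, 8.42 and 9.11 at 28°C. The 3 cold BAT arrays lay below all other arrays, and array 3, which also carried pancreatic enzyme genes, was the lowest. At 6°C BAT was 3.46-fold lower than mWAT (-1.79 ± 0.39, adjusted p = 0.00148), and 2.32-fold lower than sWAT without passing (-1.21 ± 0.39, adjusted p = 0.0232). The cold BAT mean lay under the array medians, so these folds are not exact. The difference from mWAT stood in all 18 fits that each left out 1 array but ended in 3 of 9 other settings. It was -1.40 without the 3 arrays that carried pancreas genes (adjusted p = 0.0166), -0.81 with the mean of the 3 Ngfr probe sets (0.0131), and had an adjusted p of 0.0185 when only the 2 groups were fitted. The cold difference in BAT was -1.10 ± 0.39 (2.14-fold, 95% interval -1.92 to -0.27), which did not pass (adjusted p = 0.0809). It was -0.57 ± 0.39 in sWAT and -0.13 ± 0.39 in mWAT. The other Ngfr probe sets were dim, with means of 5.44 for 1450177_at and 5.25 for 1421241_at over the 18 arrays, and neither passed in any comparison. The genes that followed Ngfr most closely were Sall2, Fgf2, Glt8d1, Ogn and Pkd1 (Pearson correlation 0.889 to 0.906), and its correlation with S100b, -0.70, was the lowest of the 15 member pairs.

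The 8 probe sets of Mbp did not measure the same thing. The gene lies at chr18:82475091-82585637. Probe sets 1425264_s_at and 1425263_a_at followed each other (Pearson correlation 0.87 over 18 arrays), the other 6 followed each other (0.76 to 0.99), and between these sets the correlation ran from -0.58 to -0.14. The brightest, 1425264_s_at, read 11.04, 10.88 and 11.43 in BAT at 6°C, against 10.69, 10.74 and 10.51 at 28°C. In sWAT it read 10.70, 10.99 and 10.83 at 6°C, against 11.11, 10.72 and 10.76 at 28°C. In mWAT it read 11.27, 11.36 and 10.13 at 6°C, against 11.10, 11.19 and 10.28 at 28°C. Its depots overlapped, no comparison passed, and the lowest reading at each mWAT temperature was on array 3, where lymphocyte markers averaged 6.54 at 6°C and 6.63 at 28°C. The genes that followed it most closely were Mlc1, Rel, F8, Slc46a3 and Itgae (0.842 to 0.876), of which Rel and Itgae are known from lymphocytes. The Mbp gene also gives longer transcripts, called golli, which immune cells make as well as glia. Which transcripts each probe set reads was not tested.

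The other Mbp readings tended to be highest in sWAT. Probe set 1433532_a_at, the brightest of those 6, read 9.63, 10.23 and 9.52 in BAT at 6°C, against 10.27, 10.60 and 10.88 at 28°C. In sWAT it read 10.92, 11.42 and 10.99 at 6°C, against 10.19, 11.24 and 11.60 at 28°C. In mWAT it read 9.58, 9.87 and 10.37 at 6°C, against 9.83, 9.78 and 10.48 at 28°C. At 6°C the 3 BAT and the 3 sWAT arrays did not overlap, and BAT was 2.49-fold lower (-1.32 ± 0.33, adjusted p = 0.00668). Probe set 1454651_x_at passed for the same comparison (-1.22 ± 0.33, adjusted p = 0.0099) and 1436201_x_at had an adjusted p of 0.0109. At 28°C none of the 8 passed for any pair of depots. The cold BAT arrays lay below the warm ones for 5 of the 6, with differences of -0.88 to -0.72 that did not pass (adjusted p = 0.145 to 0.191). Mbp on these probe sets thus gave 2 calls, and its brightest probe set gave 0.

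**Figure D4:**
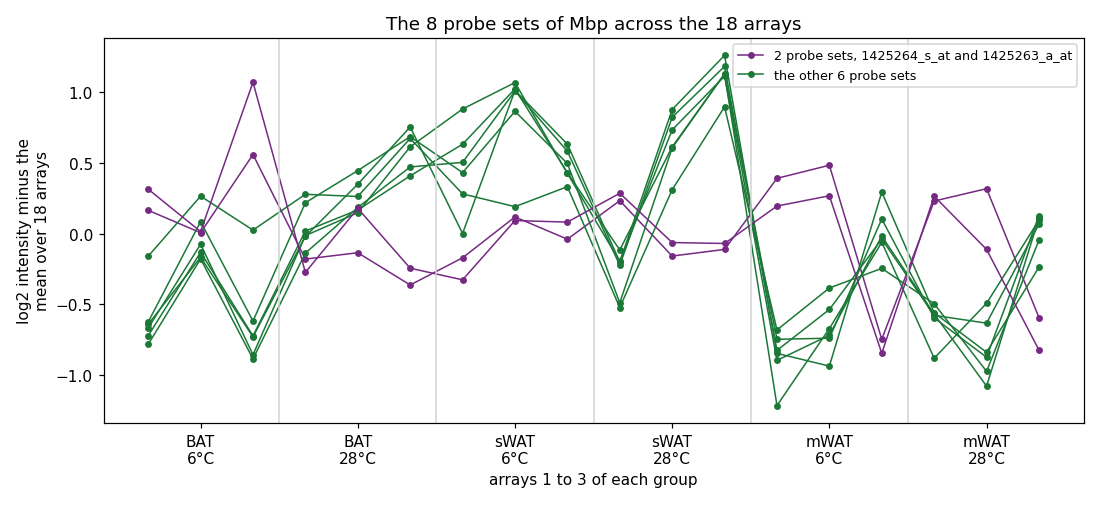
Log2 intensity of the 8 Mbp probe sets on the 18 arrays (x axis, arrays 1 to 3 of each group), each minus its own mean over all arrays. The 6 probe sets in green rise and fall together and have their highest value on a sWAT array, 5 of them above 1.0, while the 2 in purple run apart from them, with their lowest values on array 3 of both mWAT groups.

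Genes of the same pathways gave the setting for these members. Of 14 further Schwann myelin genes 10 were measured, and none passed between 6 and 28°C in any depot. In BAT against sWAT 0 were higher and 2 lower at 28°C, and 0 were higher and 5 lower at 6°C (Pmp22, Cnp, Pllp, Ncmap and Ugt8a). The background was 13.2% of all probe sets higher and 9.66% lower at 28°C, and 13.4% and 10.3% at 6°C. The median of the 10 differences was -0.67 at 28°C and -0.92 at 6°C, beside 0.11 and 0.13 over all probe sets. Cnp, an enzyme of myelin membranes, read 9.78, 9.96 and 9.78 in BAT at 6°C, against 11.03, 11.29 and 11.22 in sWAT at 6°C, with no overlap (-1.34 ± 0.25, adjusted p = 8.99e-04). In mWAT Cnp read 11.81, 11.92 and 11.03 at 6°C, and 11.79, 11.76 and 10.91 at 28°C. It was lowest there on array 3 at both temperatures, as the lymphocyte markers were, and the part of immune cells was not tested. Ncmap, a myelin-associated protein of peripheral nerve, was higher in sWAT than in mWAT by 1.86 ± 0.24 at 28°C and by 1.98 ± 0.24 at 6°C (adjusted p = 9.59e-05 and 5.81e-05), with its mWAT arrays under the array medians. Pmp22, a structural protein of peripheral myelin that many other cells make, was lower in BAT than in sWAT, with a log2 difference of -0.64 ± 0.16 at 28°C and of -0.89 ± 0.16 at 6°C.

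The list of Schwann lineage and nonmyelinating genes, 15 of 16 measured, held genes with different orders of the depots. In BAT against sWAT 3 of the 15 were higher and 2 lower at 28°C, beside 13.2% and 9.66% of all probe sets. At 6°C 1 was higher and 2 lower, beside 13.4% and 10.3% of all. Erbb3, the neuregulin receptor, was highest in sWAT, as Sox10 was. It read 9.52, 9.37 and 9.66 in BAT at 28°C, against 11.39, 11.40 and 11.54 in sWAT at 28°C (-1.93 ± 0.18, adjusted p = 1.71e-06). It was also higher in sWAT than in mWAT, by 2.04 ± 0.18 at 28°C (adjusted p = 2.48e-06) and by 1.47 ± 0.18 at 6°C. The mammary list mean was also highest in sWAT, and the part of mammary epithelium in the Erbb3 values was not tested. Erbb3 was the only gene of the 15 that was higher in sWAT than in mWAT, at each temperature, while 7 were lower at 28°C and 5 at 6°C. The background was 2.14% of all probe sets higher and 3.7% lower at 28°C, and 3.75% and 3.7% at 6°C. Ncam1, a neural cell adhesion molecule of nonmyelinating Schwann cells and of neurons, was lower in BAT than in mWAT, with a log2 difference of -2.54 ± 0.25 at 28°C and of -2.95 ± 0.25 at 6°C. It was lower in sWAT than in mWAT, with a log2 difference of -2.02 ± 0.25 at 28°C. Gpr37l1, Fabp7 and Sox2, genes of immature or satellite glia, were also lower in sWAT than in mWAT at 28°C, with log2 differences of -2.28 ± 0.34, -2.12 ± 0.35 and -1.84 ± 0.32. Their sWAT means lay under the array medians, and for Gpr37l1 and Sox2 those of mWAT did too, so these sizes are not exact. The neuron list rose with these genes in mWAT, and its part was not tested. In the cold, 1 of the 15 passed in BAT: Scn7a, a sodium channel of nonmyelinating Schwann cells, read 10.93, 11.14 and 10.38 at 6°C, against 11.41, 11.80 and 11.71 at 28°C (-0.82 ± 0.18, adjusted p = 0.00771). This count stands beside 5.28% of all probe sets called in that comparison. Skeletal muscle genes averaged 8.23, 10.63 and 9.07 on the cold BAT arrays, against 9.01, 12.82 and 12.39 on the warm ones. In mWAT, where the Scn7a means were 12.44 at 6°C and 12.71 at 28°C, they averaged 7.57 or less. The part of muscle in the Scn7a values was not tested. In sWAT and mWAT 0 of 15 passed, with 3 and 1 at an unadjusted p under 0.05.

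Of 8 neurotrophic ligands other than Ntf3 on the list, 6 were measured, and none passed between 6 and 28°C. The paper lists 1 of these, Bdnf, among its top genes lowered by cold in sWAT. Here Bdnf read 5.95, 5.88 and 5.63 in sWAT at 6°C, against 6.74, 8.64 and 6.27 at 28°C, without overlap and without passing. Gdnf, a survival factor for sympathetic and enteric neurons, read 6.92, 6.72 and 7.82 in mWAT at 6°C and 7.30, 6.89 and 8.45 at 28°C, and at most 4.42 in BAT and in sWAT. At 28°C it was lower in BAT than in mWAT, with a log2 difference of -3.40 ± 0.39 (adjusted p = 8.91e-06), and in sWAT than in mWAT, with a log2 difference of -3.94 ± 0.39 (adjusted p = 9.04e-06). Its BAT and sWAT arrays lay far under the array medians, so these are fitted values of uncertain size. Ntf5, which encodes neurotrophin-4, was lower in BAT than in sWAT, with a log2 difference of -2.33 ± 0.45 at 28°C and of -1.77 ± 0.45 at 6°C (adjusted p = 9.72e-04 and 0.0064), and its BAT arrays also lay under the medians.

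Of 8 further receptors 7 were measured, and Ntrk3, whose product TrkC is the main receptor of neurotrophin-3, was highest in BAT. Ntrk3 read 11.11, 11.30 and 11.22 in BAT at 6°C, against 11.93, 12.09 and 12.21 at 28°C. In sWAT it read 9.28, 9.12 and 9.15 at 6°C, against 8.54, 9.39 and 9.45 at 28°C. In mWAT it read 8.35, 8.27 and 8.40 at 6°C, against 8.01, 8.21 and 8.84 at 28°C. The 6 BAT arrays lay above all white fat arrays, by 2.95 ± 0.23 over sWAT (adjusted p = 3.83e-07) and 3.72 ± 0.23 over mWAT (adjusted p = 3.64e-08) at 28°C, and by 2.03 ± 0.23 and 2.87 ± 0.23 at 6°C. Its 3 cold BAT arrays lay below the 3 warm ones, and the difference of -0.87 ± 0.23 did not pass (adjusted p = 0.0216). Ntrk2, which encodes TrkB, the receptor of Bdnf and neurotrophin-4, was higher in BAT than in mWAT by 1.53 ± 0.22 at 28°C and higher in sWAT than in mWAT by 1.40 ± 0.22. Ret, the signaling receptor of Gdnf, ran with its ligand: it was lower in BAT than in mWAT, with a log2 difference of -3.04 ± 0.39, and in sWAT than in mWAT, with a log2 difference of -2.88 ± 0.39 at 28°C. Its BAT and sWAT means lay just under the array medians.

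In BAT 2 of the 7 receptors fell at 6°C, and in sWAT and mWAT none passed. Gfra4, a coreceptor of the Gdnf family, read 7.25, 7.36 and 7.15 in BAT at 6°C, against 9.0, 8.82 and 9.02 at 28°C, with no overlap (-1.70 ± 0.31, adjusted p = 0.00244). Gfra2, the coreceptor of neurturin, read 8.66, 8.82 and 8.82 in BAT at 6°C, against 9.14, 9.46 and 9.51 at 28°C (-0.60 ± 0.13, adjusted p = 0.00848). Both calls stand beside the 5.28% of all probe sets called in BAT. The 19 member probe sets gave none in this comparison.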

How the data were processed

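RNA from 3 depots at 2 temperatures was hybridized to Affymetrix arrays, 3 for each of 6 groups. The authors adjusted the background, summarized probe sets and normalized in R, and deposited linear intensities for 45101 probe sets; the algorithm is not given in the sources used here. Of these, 64 control probe sets were left out, log2 was taken of the deposited intensity, and no further normalization was applied. Probe sets were named from the platform annotation (34958 name 1 gene, 932 several and 9211 none). All 18 arrays entered 1 fit of 6 group means in limma 3.58.1 (R 4.3.3), with 12 contrasts, Benjamini-Hochberg adjustment per contrast and an adjusted p under 0.01 as threshold. The test was checked on simulated data. A gene's main probe set was its brightest over 18 arrays, and list genes were described by it. The genes most like a member were the 5 of highest Pearson correlation among 13211 genes. The members and gene lists were chosen with earlier results of these data known. Named genes were all members and, from a list, up to 4 of largest change among those that passed; a count of 5 or fewer may be spelled out. The number of arrays limits the precision. The p-values set each difference against a spread between arrays that the fit pools over all 6 groups. An array of 1 depot can therefore move the p-value of a comparison within another depot.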

Additional observations from a re-analysis of the deposited data

How the results depend on the processing

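Over 17 changes of single genes, 9 alternatives and 18 fits that each left out 1 array gave 459 values, of which 414 kept their side of the threshold, 45 no longer passed and 0 reversed. The alternative without the 3 arrays that carried pancreas genes was chosen after seeing the data. Counts of called member probe sets moved as follows, where gene means count genes (of 6) instead of probe sets (of 19), and the cause was not tested except where the setting tests fewer arrays or features. For BAT against mWAT at 28°C the count of 2 was 4 at an adjusted p of 0.05 and 1 with gene means, and 2 to 3 with 1 array left out. At 6°C the count of 4 was 2 without the pancreas arrays, with gene means and with the 2 groups alone, and 3 to 5 with 1 array left out. For BAT against sWAT at 28°C the 8 calls were 4 with gene means and 5 to 8 with 1 array left out, and at 6°C the 9 calls were 4 without the pancreas arrays, 3 with gene means and 4 to 10 with 1 array left out. For sWAT against mWAT at 28°C the 5 calls were 2 with gene means, 0 with the 2 groups alone and 4 to 5 with 1 array left out, and at 6°C the 3 calls were 1 without the pancreas arrays or with the 2 groups alone, 8 at 0.05, 6 without mWAT array 3 at both temperatures and 1 to 4 with 1 array left out. For sWAT at 6 against 28°C the count of 0 was 1 at 0.05 and without mWAT array 3 at both temperatures, and 0 to 1 with 1 array left out. Counted by genes as deposited, the calls were 1 and 3 for BAT against mWAT at 28 and 6°C, 4 and 3 for BAT against sWAT, and 3 for sWAT against mWAT at 28°C, so gene means lowered a count by 1 at most. In BAT and mWAT the cold counts stayed 0 in all of these. The median over all probe sets of BAT minus white fat was 0.11 to 0.15 as deposited and up to 0.35 with arrays centered on their medians, and no called member probe set changed direction under quantile normalization or centering. Of 171 differences of the 19 probe sets, 3 turned sign under the first and 6 under the second (5 of Mbp), none larger than 0.15 log2 units as deposited. No paired analysis was possible because the labels give no replicate numbers and no mouse for an array. Calls of dim probe sets are limited by signal over background.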
